A study of Mus musculus with 4 samples.

Results

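Rbpms is the gene for RNA-binding protein with multiple splicing (mouse gene ID 19663, protein-coding), and it was 1 of the 300 genes on a custom panel imaged with Xenium in mouse retina. Xenium decodes single transcripts as spots, called puncta, inside tissue sections, and assigns them to segmented cells. The column of Rbpms puncta per cell was followed over all 131379 deposited cells, each of them called a retinal ganglion cell (RGC) and placed by the authors in 1 of 45 types. The cells lay in 41 sections of 5 retinas on 8 slides. The retinas came from wild-type C57BL/6 mice that had received no treatment, were cut en face, in the plane of the retina, into 20 µm sections, and formed 1 group. The labels used here do not give the ages of the animals or say whether the 5 retinas came from 5 animals, so errors and p-values measure the spread between retinas.

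RGCs are the output neurons of the retina, and their axons form the optic nerve. RBPMS protein binds RNA through an RNA recognition motif, and in the retina antibodies to it are widely used to stain RGCs as a class and to count them, because other retinal neurons show little of it. A class marker is usually chosen for being present in every RGC type, whereas transcription factors such as Pou4f2 (Brn3b), Pou4f3 (Brn3c), Isl2 and Ebf3 mark subsets of RGCs to different degrees. The data allowed 4 questions on this marker: how level it was over types, which other genes followed or opposed it, whether it varied with position or cell volume, and how cells differed where it was not detected.

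Rbpms was among the most abundant transcripts of the panel, ranking 9 of 300 by total puncta. The table held 873210 Rbpms puncta, which is 6.65 per cell on average, with a median of 6 and a highest value of 71 in 1 cell. In retinas 1 to 5 the mean was 7.31, 6.68, 6.04, 6.26 and 6.24 puncta per cell. As a share of all puncta this was 21.1, 21.3, 19.6, 20.2 and 19.2 Rbpms puncta per 1000 puncta, the scale called the Rbpms share below. Retinas 1 and 2 were the highest on both scales.

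At least 1 Rbpms punctum was present in 95.7%, 95.3%, 93.1%, 94.1% and 94.2% of cells of retinas 1 to 5, and 5.17% of all cells had none. Cells without a punctum were shallow. Their median was 157 to 181 puncta of all genes, by retina, against 294 to 333 in cells with one. When every cell was thinned at random to 100 puncta, the lowest depth in the table, the detected share was 83.3%, 83.5%, 79.3%, 81.2% and 80.0%. Over all retinas that left 82.2% of cells with a punctum, against 94.8% as deposited. The mean detected share of a type, as deposited, ran from 80.8% in 33_M1 to 99.2% in 04_FminiOFF, so Rbpms was present in most cells of every type. Cells of other classes are not in the table, so the level in cells that should lack the gene could not be measured.

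The types differed in Rbpms by 3.82-fold from highest to lowest share and by 3.02-fold in puncta per cell. The type 35_Novel, a small population of 428 cells, stood at the top, and 3 of the 4 alpha RGC types, the large-bodied RGCs, stood at the bottom. Most types lay close together: 40 of the 45 were within 1.5-fold of the median type (19.7 per 1000 puncta), 1 was above that range and 4 were below it. The sources used here do not give how types were assigned or whether Rbpms was used for it, so the levels by type are a description and carry no test.

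**Figure D1:**
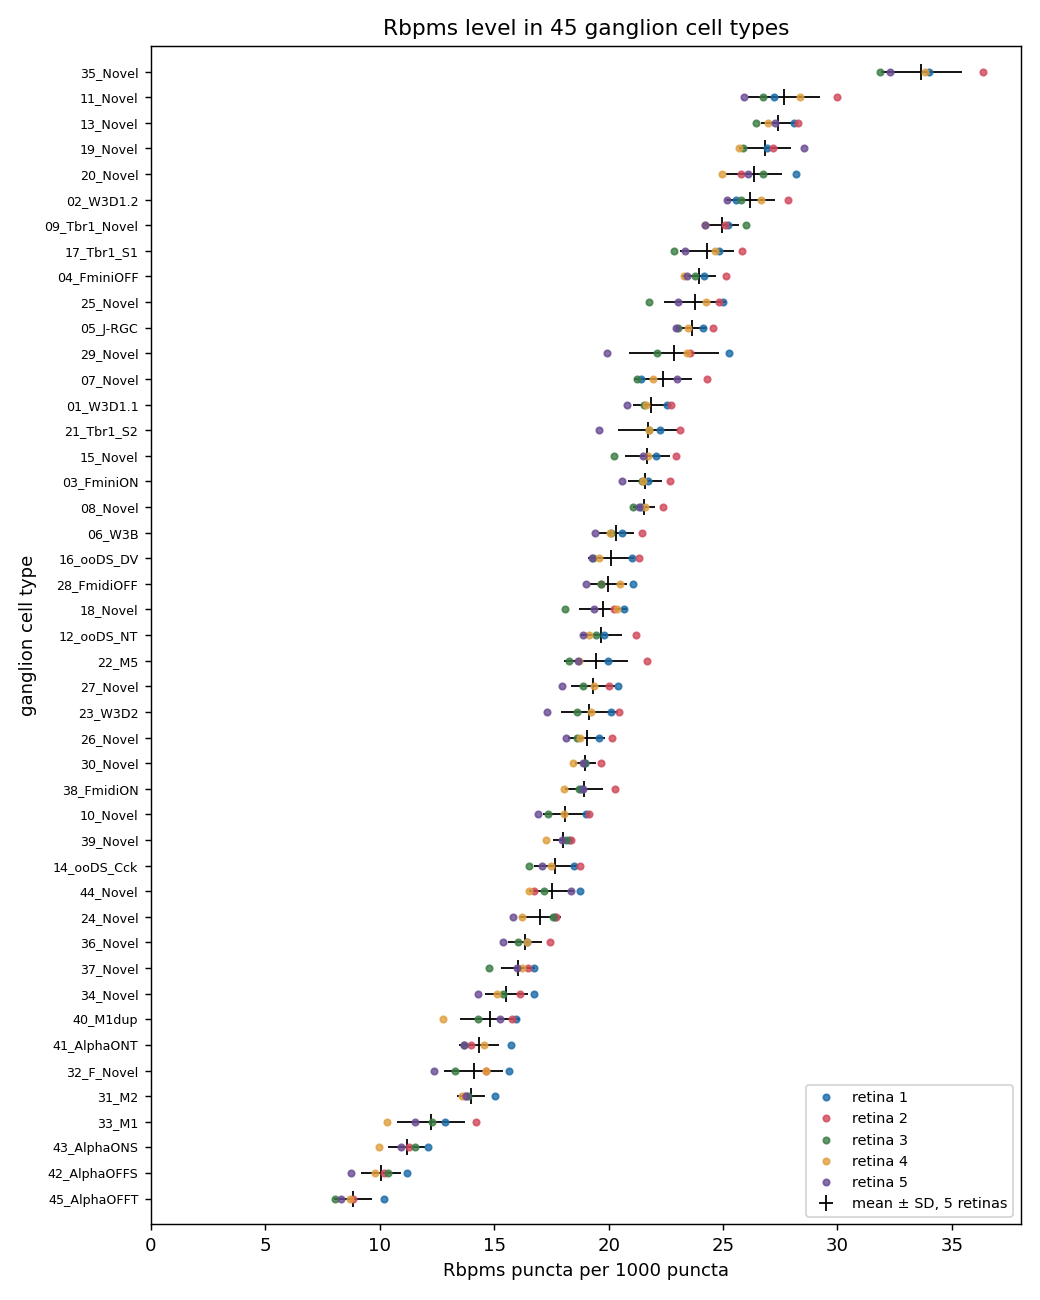
Rbpms puncta per 1000 puncta (x axis) in each of the 45 ganglion cell types (y axis), with 1 coloured point per retina and the mean ± SD over 5 retinas in black. The type 35_Novel lies at 33.7 per 1000 puncta and 45_AlphaOFFT at 8.82, while 40 types lie within 1.5-fold of the median type.

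In 35_Novel the Rbpms share was 34.0, 36.4, 31.8, 33.8 and 32.3 per 1000 puncta in retinas 1 to 5, a mean of 33.7 ± 1.77 (SD, n = 5). It ranked first in every retina, and its lowest retina lay above the highest retina of any other type (29.98 in 11_Novel). It also had the most Rbpms puncta per cell, 9.14 ± 1.11 (SD, n = 5), although its median volume ranked 43 of 45 from the largest. After thinning, 96.2% of its cells kept an Rbpms punctum.

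Behind it came 11_Novel at 27.6 ± 1.57, 13_Novel at 27.4 ± 0.77, 19_Novel at 26.8 ± 1.15, 20_Novel at 26.3 ± 1.21 and 02_W3D1.2 at 26.2 ± 1.06 per 1000 puncta (SD, n = 5). These 5 types changed places between retinas, and no neighbouring pair among them differed beyond the SD of its per-retina differences. The type 01_W3D1.1, the most numerous with 11850 cells and the smallest by median volume, shows how the scales part. Its share of 21.9 ± 0.79 was above the median type, while its 4.76 ± 0.46 puncta per cell ranked 39 of 45.

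The lowest levels were found in alpha RGCs and in melanopsin types. In 45_AlphaOFFT, the transient OFF alpha type, the share was 10.2, 8.85, 8.06, 8.71 and 8.30 per 1000 puncta in retinas 1 to 5 (mean 8.82 ± 0.83, SD). In 42_AlphaOFFS, the sustained OFF alpha type, it was 11.2, 10.2, 10.4, 9.78 and 8.74 (mean 10.1 ± 0.89). In 43_AlphaONS, the sustained ON alpha type, it was 12.1, 11.3, 11.6, 9.96 and 10.9 (mean 11.2 ± 0.80).

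These 3 types held ranks 43, 44 and 45 in the same order in all 5 retinas. They were also the 3 types of largest median volume. Per cell they held 5.13, 4.47 and 3.90 Rbpms puncta per cell (ONS, OFFS and OFFT), below the 6.50 of the median type. Thinned to 100 puncta, 64.1%, 58.3% and 53.7% of their cells kept a punctum. The fourth alpha type, 41_AlphaONT, had a higher share of 14.3 ± 0.87.

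The melanopsin-expressing, intrinsically photosensitive RGCs (ipRGCs) were spread. In 33_M1 the share was 12.9, 14.2, 12.3, 10.3 and 11.5 per 1000 puncta in retinas 1 to 5 (mean 12.2 ± 1.46, SD), and its 3.02 ± 0.42 puncta per cell was the lowest of all types. The M1 type is small, ranking 44 of 45 by median volume, so low Rbpms per cell was seen in both the largest and one of the smallest types. The share was 13.98 ± 0.60 in 31_M2 and 14.8 ± 1.31 in 40_M1dup, and 19.5 ± 1.40 in 22_M5, close to the median type.

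Grouped by the names the authors gave, the 4 alpha types together had a share of 10.5 ± 0.71 and the 4 ipRGC types 15.1 ± 1.01 per 1000 puncta (SD, n = 5). The 3 ON-OFF direction-selective (ooDS) types stood at 19.4 ± 0.92, the 5 types with an F name (F-mini, F-midi and F_Novel) at 20.4 ± 0.89, the 4 W3 types at 22.6 ± 0.88 and the 3 Tbr1 types at 22.997 ± 1.05. The F group was not uniform, with 04_FminiOFF at 23.96 and 32_F_Novel at 14.1. The other 22 types together stood at 21.1 ± 0.77.

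The order of the types was nearly the same in every retina. Spearman's rho between the 45 levels of 2 retinas lay between 0.969 and 0.991 over the pairs of retinas, a description in which all types of a retina share its slides. Relative to the level of the whole retina, 18 types were above in all 5 retinas, 22 were below in all 5 and 5 were mixed. Fine order was not resolved: of the 44 pairs of neighbours in rank, 6 differed by more than the SD of their per-retina differences. Those pairs were 35_Novel over 11_Novel, 08_Novel over 06_W3B, and each step from 31_M2 down through 33_M1, 43_AlphaONS and 42_AlphaOFFS to 45_AlphaOFFT.

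Larger types had more puncta of all genes (Pearson r = 0.92 between median puncta and median volume over 45 types) but not more Rbpms per cell (r = -0.07). The Rbpms share fell from small to large types with r = -0.56 and Spearman's rho = -0.49, and r = -0.42 without the 2 types farthest from the median volume. These are descriptions over 45 types of the same sections, and the share has the total puncta in its denominator.

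Against the rest of the panel, Rbpms was level across types. Its coefficient of variation (CV, the SD over the mean of the 45 type levels) was 25.3%, which ranked 23 of 300 genes from the most even. By retina the CV was 23.6%, 25.99%, 25.2%, 26.7% and 26.5%, with ranks of 18 to 25. Measured as the SD of log2 levels it ranked 30, and as the CV of puncta per cell 16.

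The list of pan-RGC markers held 18 genes, of which 8 were on the panel, Rbpms among them. Slc17a6, the vesicular glutamate transporter VGLUT2 of RGCs, had a CV of 23.1% (rank 14). Nefh, the heavy neurofilament subunit, had 32.9% (rank 45). The transcription factors were far less even: Isl1 58.4%, Pou4f2 80.6%, Ebf3 109%, Isl2 115% and Pou4f3 118%. From highest to lowest type Slc17a6 spanned 3.53-fold and Nefh 3.17-fold, close to the 3.82-fold of Rbpms, whereas Isl2 spanned 31.6-fold and Pou4f3 49.9-fold. Rbpms and Slc17a6 had the same highest type, 35_Novel.

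**Figure D2:**
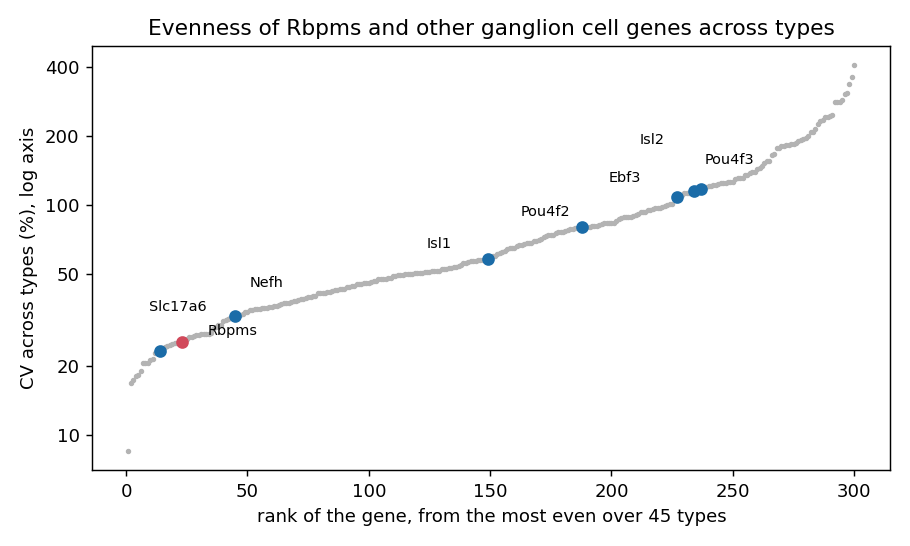
The CV across 45 types (y axis, log scale, in percent) of the 300 panel genes, ordered from the most even (x axis). Rbpms (red, CV 25.3%, rank 23) and Slc17a6 and Nefh lie at the even end, and the 5 transcription factors of the pan-RGC list (blue) lie further right.

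Within a type, cells still differed. Type membership held 7.93% ± 0.69 (SD, n = 5) of the variance in Rbpms puncta between cells of a retina, and 6.77% ± 0.90 after thinning. The variance within types was 3.01 times the mean as deposited and 1.24 times the mean at 100 puncta per cell, where counting error alone would give a ratio of about 1. Over all cells as deposited, the share of variance between types was 7.65% for Rbpms, 15.1% for Slc17a6 and 22.7% for Nefh. By this measure Rbpms ranked 170 of 300 genes from the highest. The measure also depends on counting error, so genes of unlike abundance are not strictly comparable.

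Among the 244 other genes with at least 0.1 puncta per cell, those whose type levels ran most like Rbpms were named by Pearson's r over the 45 types. They were Cacnb4 (r = 0.78), a calcium channel beta subunit, Cacng5 (0.77) and Cacng7 (0.71), auxiliary subunits of AMPA receptors, Grik5 (0.75), a kainate receptor subunit, and Scn3a (0.70), a sodium channel alpha subunit. Within single retinas r was 0.74 to 0.78 for Cacnb4 and 0.55 to 0.71 for Cacng7. The lowest types of these genes included 43_AlphaONS for Cacnb4 and Cacng5, 42_AlphaOFFS for Grik5 and 45_AlphaOFFT for Scn3a.

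The most opposite genes were Spp1, encoding osteopontin (r = -0.81), Coch, encoding cochlin (-0.77), Etv1, an ETS transcription factor (-0.73), Igfbp2, an insulin-like growth factor binding protein (-0.71), and Cdkn1c, a cell cycle inhibitor (-0.70). The highest types were alpha types for 4 of them: 43_AlphaONS for Spp1, 41_AlphaONT for Etv1, 42_AlphaOFFS for Igfbp2 and 45_AlphaOFFT for Cdkn1c. Coch was highest in 32_F_Novel, another of the low-Rbpms types. All these correlations share the sections and the total puncta, and Slc17a6 (r = 0.58) and Nefh (r = -0.58) of the pan-RGC list had opposite signs.

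Sections differed far more than their type mix would give. Over the 36 sections with at least 100 cells the Rbpms share ran from 7.45 to 22.5 per 1000 puncta (median 20.0, SD 3.08), while the level calculated from each section's type mix ran from 18.2 to 20.8 (SD 0.57). The 34 sections with at least 200 cells lay between 12.7 and 22.5. The 7 smaller sections (19 to 134 cells) lay between 1.40 and 19.1.

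Markers of other retinal cells moved with this difference. The summed share of 12 bipolar cell markers, genes of the interneurons between photoreceptors and RGCs, was 5.60 to 26.5 per 1000 puncta in the 34 larger sections (median 6.98) and 13.1 to 56.2 in the 7 smaller ones (median 29.3). The summed rod markers were 1.46 to 13.7 and 6.41 to 59.2. Over the 34 larger sections the Rbpms share and the bipolar sum had Pearson's r = -0.76 and Spearman's rho = -0.55, a description over sections that share retinas and slides. The part of these other transcripts in the Rbpms level was not tested.

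**Figure D3:**
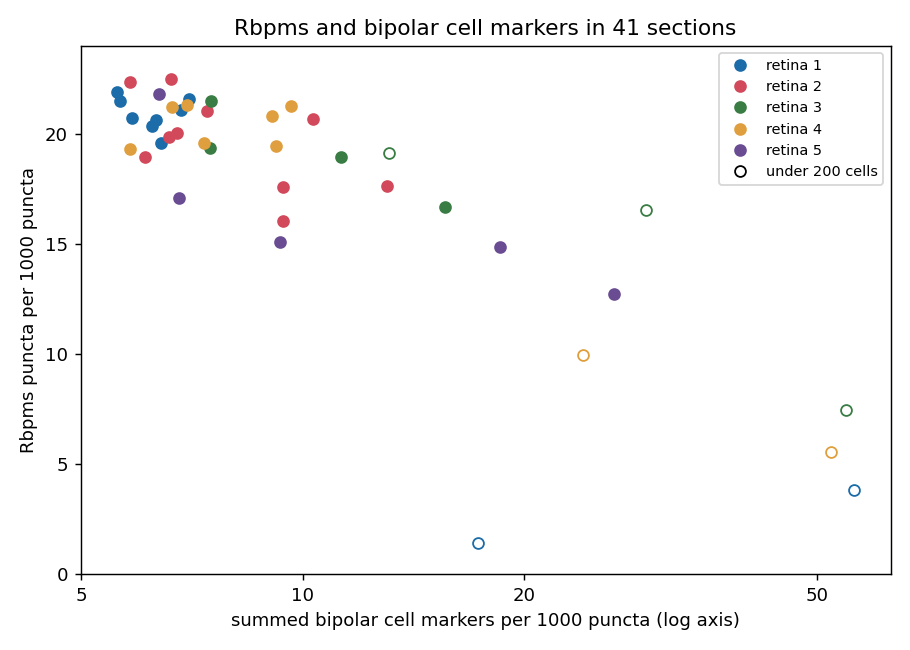
Rbpms puncta per 1000 puncta (y axis) against the summed share of 12 bipolar cell markers (x axis, log scale) in 41 sections, coloured by retina, with open circles for the 7 sections under 200 cells. Sections with more bipolar transcripts had less Rbpms, and the section with the lowest Rbpms share (1.40) held 19 cells.

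Each retina lay on a pair of slides, and the slides of 1 retina differed. The retinas were not separate by slide: 1 slide held cells of retinas 4 and 5, and another held cells of retinas 3 and 5. The Rbpms share was 16.4 per 1000 puncta on one slide of retina 5 and 21.8 on the other, 17.4 and 21.5 in retina 2, 17.02 and 19.9 in retina 3, 19.3 and 20.5 in retina 4, and 20.5 and 21.4 in retina 1. These gaps exceeded the spread of 19.2 to 21.3 between whole retinas in retinas 2, 3 and 5. Leaving out the sections under 200 cells moved the level of each of the 45 types by less than its SD between retinas.

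Over all cells, no change of Rbpms with radius, Y or X passed the test. Counts summed per retina and side were fitted with edgeR's quasi-likelihood test over all genes, with the retina as a block and Benjamini-Hochberg adjustment, and a change is given as log2 fold ± SE. Periphery (scaled radius over 0.5) against centre gave -0.05 ± 0.05 (adjusted p = 0.484, edgeR), where 20 of 300 genes passed (6.67%), 10 higher and 10 lower. Scaled by total puncta alone, 23 passed (7.67%), 14 of them higher. The 5 retinas did not share a direction: the Rbpms share was 1.64 and 0.32 per 1000 higher at the periphery in retinas 1 and 3, and changed by -1.93, -0.43 and -2.17 in retinas 2, 4 and 5. With 1 retina left out, the change ran from -0.10 (adjusted p = 0.0886, edgeR, without retina 1) through -0.02 (without retina 2) to -0.00088 (adjusted p = 0.987, without retina 5).

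In rings of 0.2 of the scaled radius the share was 20.3, 20.4, 20.5, 20.2 and 19.5 per 1000 puncta from the centre to a radius of 1.0, with SDs of 0.97 to 1.71 between retinas. Beyond 1.0, where 4207 cells lay, it was 16.01 ± 5.28 (SD, n = 5) and ranged from 6.85 to 20.4. Within each retina the outermost ring inside 1.0 had 20.5, 20.3, 18.1, 19.5 and 19.1 per 1000 puncta in retinas 1 to 5, against 19.02, 20.8, 19.3, 20.8 and 21.3 in the innermost ring. It was higher in retina 1 and lower in the other 4.

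Along the Y axis, whose anatomical direction the labels do not give, the change above 0 was -0.04 ± 0.02 (adjusted p = 0.551, edgeR), and 0 of 300 genes passed (0%). Of those genes DESeq2 called 6. The share was higher above 0 in 1 of 5 retinas. With slides or sections in place of retinas as the block the sign turned, to 0.04 and 0.14 (log2), neither past the threshold.

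Along the X axis the Rbpms share was lower above 0 in each of the 5 retinas. It was 20.7, 20.9, 18.9, 20.1 and 18.6 per 1000 puncta above 0 against 21.5, 21.8, 20.0, 20.4 and 19.9 below 0 in retinas 1 to 5. The levels of the sides overlapped between retinas, and the differences within a retina ran from -1.31 to -0.31. The mean difference of -0.89 ± 0.38 (SD, n = 5) gave p = 0.063 when the signs of the 5 retinas were flipped in an exact two-sided permutation test, the smallest p that 5 retinas allow, and 0.156 after adjustment over 5 comparisons.

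In edgeR the change along X was -0.06 ± 0.02 (adjusted p = 0.137), where 30 of 300 genes passed (10%). It was -0.06 by total puncta alone (adjusted p = 0.0526, edgeR) and -0.07 in DESeq2 (adjusted p = 0.0737). With the slide as block it was -0.09 (adjusted p = 0.0697) and with the section as block -0.11 (adjusted p = 0.19, edgeR). A shared sign in all 5 retinas was seen for 27.7% of genes on this axis. With every type given the same weight on either side, the change was -0.03 ± 0.02 (adjusted p = 0.584, limma). Of the other 7 pan-RGC genes only Nefh passed along X, at 0.17 ± 0.03 (adjusted p = 0.0149, edgeR). With the same type mix on either side Nefh had 0.13 ± 0.03 and did not pass (adjusted p = 0.14, limma), as 0 of 300 genes did.

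Within types, Rbpms was called along the radius in 1 type and along Y and X in none. For the radius, 1 of 40 types passed, 29_Novel with -0.22 ± 0.05 at the periphery (adjusted p = 0.00164, edgeR; lower in 3 of 3 retinas with enough cells, 554 cells), and lower calls made up 0.724% of all type-gene pairs. By total puncta alone 29_Novel had -0.18 (adjusted p = 0.0164, edgeR). With 20 in place of 50 cells required per side no type passed, and 29_Novel had -0.06 (adjusted p = 0.85). Without retina 2 its change was -0.21 (adjusted p = 0.148) and without retina 4 it was -0.19 (adjusted p = 0.133, edgeR), so the call rested on each of these retinas. For Y 0 of 42 types and for X 0 of 43 types passed (0.415% and 0.281% of all pairs did), with 7 and 5 types at an unadjusted p under 0.05.

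Rbpms rose with cell volume among cells of the same type. Cells above the median volume of their type and retina held 8.38 ± 0.63 Rbpms puncta and the others 4.63 ± 0.39 (SD, n = 5), and the total puncta rose too, so the share is the closer comparison. The share was 18.6 per 1000 puncta in the lowest quartile of volume within type, then 19.8, 20.8 and 20.9. Above against below the type's median volume it was 20.8 ± 0.92 against 19.3 ± 0.87, higher in 5 of 5 retinas by 1.81, 1.38, 1.45, 1.44 and 1.47.

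The log2 change was 0.17 ± 0.01 (adjusted p = 2.9e-05, edgeR with TMM scaling), where 191 of 300 genes passed (63.7%), 29% of all genes with a rise. Scaled by total puncta alone it was 0.11 ± 0.01 (adjusted p = 9.2e-05, edgeR), where 198 genes passed (66%) and 49 of them rose (16.3%). The median of all genes was -0.03 with TMM and -0.09 by total puncta. Without the retina as a block the adjusted p was 0.0977 (edgeR). A share that rose in all 5 retinas or fell in all 5 was seen for 63.3% of genes.

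Of the 43 types with enough cells, 28 passed with a rise and 0 with a fall, and all 43 estimates were above 0, from 0.005 to 0.45, against 9.25% of all type-gene pairs with a called rise. By total puncta alone 21 passed with a rise, against 5% of pairs, and all 43 were again above 0. With 20 in place of 50 cells required per side, 29 of 45 types passed with a rise and 44 were above 0. With 1 retina left out, 21 to 31 of the 43 passed with a rise and 0 with a fall. With TMM the largest called rises were in 21_Tbr1_S2 (0.45 ± 0.03), 16_ooDS_DV (0.42 ± 0.03), 37_Novel (0.38 ± 0.10), 01_W3D1.1 (0.35 ± 0.04), 32_F_Novel (0.35 ± 0.05) and 18_Novel (0.34 ± 0.04). By total puncta alone all 6 were still called but smaller, and in another order: 21_Tbr1_S2 had 0.31, 37_Novel 0.28, 16_ooDS_DV 0.26, 32_F_Novel 0.25, 18_Novel 0.22 and 01_W3D1.1 0.19, the last below 31_M2 (0.25) and 28_FmidiOFF (0.21). Among these 6 the call in 37_Novel was lost without retina 2 (adjusted p = 0.118) and without retina 4 (adjusted p = 0.0502, edgeR). At the other end, with TMM, 20_Novel had 0.005 ± 0.044 (adjusted p = 0.962, edgeR). Among the alpha types 45_AlphaOFFT rose by 0.26, 42_AlphaOFFS by 0.19 and 43_AlphaONS by 0.14 with TMM, and 41_AlphaONT had 0.16 and did not pass. None of the 4 passed by total puncta alone: 45_AlphaOFFT had 0.13 (adjusted p = 0.105, edgeR), 42_AlphaOFFS 0.10 (adjusted p = 0.161), 43_AlphaONS 0.05 (adjusted p = 0.44) and 41_AlphaONT 0.09 (adjusted p = 0.473). With TMM the call in 43_AlphaONS was also lost without retina 2 (adjusted p = 0.0988) and without retina 5 (adjusted p = 0.0632, edgeR).

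**Figure D4:**
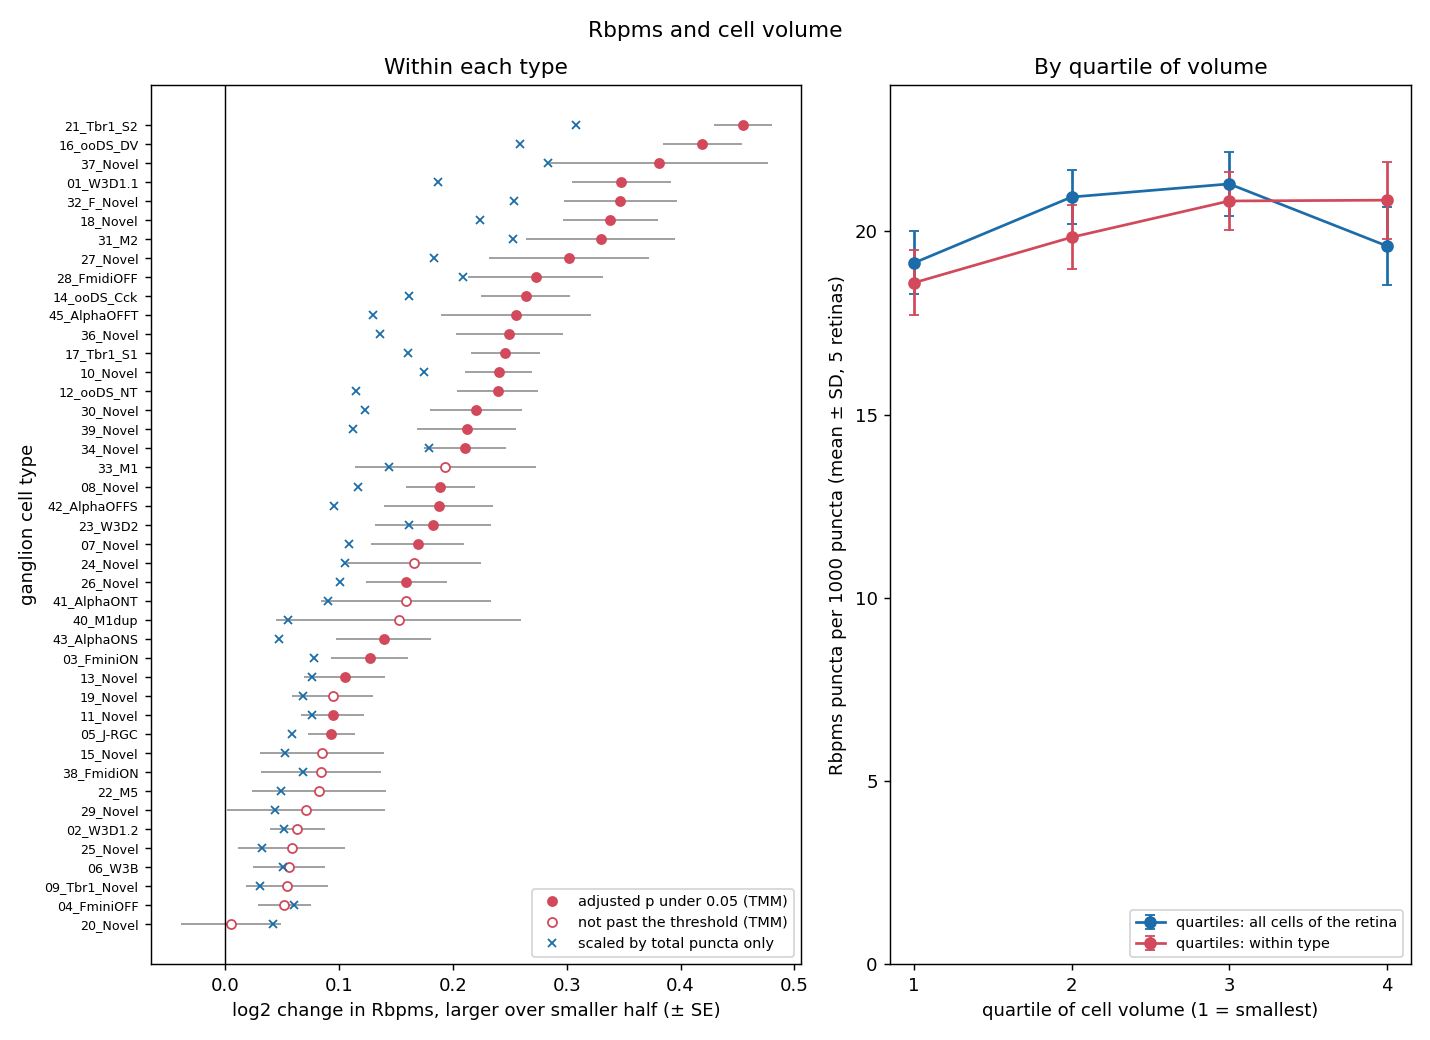
Left, the log2 change in Rbpms between cells above and below the median volume of their type (x axis, ± SE) for 43 types (y axis), with filled points past an adjusted p of 0.05 and crosses for scaling by total puncta alone. Right, Rbpms puncta per 1000 puncta (mean ± SD over 5 retinas) by quartile of volume, which rose from 18.6 to 20.9 within type and was highest in the third quartile over all cells.

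Without holding the type fixed, the relation to volume depended on the scaling. The share was 20.3 ± 0.97 above and 20.2 ± 0.80 below the retina's median volume, higher in 2 of 5 retinas. With TMM the change was 0.12 ± 0.01 (adjusted p = 1.4e-04, edgeR), where 76% of genes passed, but by total puncta alone it was 0.007 ± 0.011 (adjusted p = 0.575, edgeR). There 84.7% of genes passed, and the calls split into 68 higher and 186 lower, against 101 and 127 with TMM. The median of all genes was -0.05 with TMM and -0.17 by total puncta. Over quartiles of volume the share was 19.1, 20.9, 21.3 and 19.6, lowest in the smallest and the largest cells.

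The other pan-RGC genes did not move together with volume within type. Nefh rose by 0.21 ± 0.02 (adjusted p = 1.4e-04, edgeR) and Isl1 fell by 0.08 ± 0.02 (adjusted p = 0.00511), and both kept their sign and call by total puncta alone. Pou4f2 was lower on both scalings. Slc17a6 and Pou4f3 were higher with TMM and did not pass by total puncta, where Slc17a6 turned to -0.008. Isl2 did not pass on either scaling, and Ebf3 was called lower by total puncta alone, at -0.05, against 0.01 with TMM.

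Bipolar cell markers were lower in larger cells of a type. Of the 14 genes on the list 13 were on the panel, and 11 of them fell with TMM, beside 34.7% of all genes with a fall. Their median log2 change was -0.39, beside -0.03 for all genes. Scaled by total puncta alone, 12 of the 13 fell, beside 149 of all 300 genes. Their median there was -0.46, beside -0.09 for all genes. Their sum, without Isl1, was 6.81 ± 0.89 per 1000 puncta in the larger and 8.06 ± 1.16 in the smaller cells (SD, n = 5). The part of these transcripts in the Rbpms difference was not tested.

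Differences with other features of a cell are given as descriptions and were not tested. By quartile of distance to the nearest neighbour the Rbpms share was 21.05, 21.7, 20.5 and 17.9 per 1000 puncta, with SDs of 0.81 to 1.07 between retinas, and the most isolated quartile was the lowest in each of the 5 retinas. By quartile of DAPI signal, the nuclear stain, it was 19.5, 21.1, 21.4 and 19.3. By quartile of height within the section it was 20.0, 20.6, 20.4 and 20.0.

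Cells in which Rbpms was not detected carried more transcripts of other retinal cell types. After thinning to 100 puncta, 23444 cells held no Rbpms punctum and 107935 held at least 1. The 299 other genes were compared between them, as sums per retina. A cell can lack a punctum by chance at this depth. As deposited, 70.5% ± 2.95 (SD, n = 5) of the cells without a thinned punctum did have one. Below, cells without Rbpms means the cells without a thinned punctum, most of which held Rbpms as deposited.

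Of 299 genes 242 passed (80.9%), with 126 higher (42.1%) and 116 lower (38.8%) in cells without Rbpms (edgeR). By total puncta alone 242 passed too, with 159 higher (53.2%) and 83 lower. With every type given the same weight on either side, 195 passed (65.2%), 134 higher (44.8%) and 61 lower (20.4%; limma). Of these, 174 passed in both fits, 172 with the same sign. The median of all genes was 0.04 in the first and 0.08 in the second.

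The genes with the largest rise in cells without Rbpms included known genes of retinal interneurons. Sst, encoding somatostatin, had a log2 change of 2.35 ± 0.23, Gsg1 2.07 ± 0.17, Vsx1, a bipolar cell homeobox gene, 1.87 ± 0.24, and Lhx1, a horizontal cell LIM factor, 1.79 ± 0.30. The GABA receptor rho subunits Gabrr1 (1.61 ± 0.14) and Gabrr2 (1.48 ± 0.16), the bipolar marker Lrtm1 (1.54 ± 0.16) and the non-coding RNA Pantr1 (1.48 ± 0.29) followed. The rule that named them required the same sign in all 5 retinas. With the same type mix they ranged from 1.54 for Gabrr2 to 2.09 for Gsg1. With the section as block Gsg1 had 1.89, Vsx1 1.62, Gabrr1 1.55, Lrtm1 1.47 and Gabrr2 1.46, all past the threshold (edgeR). Sst, Lhx1 and Pantr1 had no value in that fit.

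Most of these genes were scarce in the cells compared. Gabrr2 made up 0.79 per 1000 puncta without Rbpms and 0.26 with it, Vsx1 0.40 and 0.10, and Sst 0.09 and 0.02. In retina 1 the change was smaller than in the others for several of them, 0.68 for Vsx1 against 1.95 to 2.79 in retinas 2 to 5 on the log2 scale.

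Over the members of the marker lists that were on the panel, with the same type mix, 11 of 13 bipolar genes were higher and 2 were lower (Irx6 and Isl1, which some RGC types also express). For amacrine cells it was 13 of 17 higher and 1 lower, and for horizontal cells 4 of 6 higher and 2 lower. All 4 rod, 3 cone, 5 Müller glia, 3 astrocyte, 2 microglia and 2 pericyte and smooth muscle genes and the 1 endothelial gene were higher. Of all 299 genes, 44.8% were called higher and 20.4% lower in this fit. The median change was 1.27 for bipolar, 1.19 for cone, 0.89 for rod, 0.82 for microglia, 0.62 for Müller glia and 0.35 for amacrine genes, beside 0.08 for all genes. Isl1 stands on the pan-RGC list too, Prox1 on the amacrine and horizontal lists, and Aqp4 on the Müller glia and astrocyte lists.

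As sums, bipolar markers made up 15.8 ± 3.15 per 1000 puncta in cells without and 12.1 ± 0.68 in cells with Rbpms (SD, n = 5, Isl1 included), higher in 5 of 5 retinas. Rod markers made up 7.34 ± 2.62 and 4.51 ± 1.51, and Müller glia markers 7.48 ± 0.81 and 5.25 ± 0.62. Amacrine markers made up 57.4 ± 1.97 and 54.2 ± 1.27, higher in 4 of 5 retinas. In retina 5 the amacrine sum was 55.5 without and 55.7 with Rbpms. Without the sections under 200 cells 238 genes passed, 119 higher and 119 lower. Whether these transcripts came from neighbouring cells or from cells of another class was not tested.

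**Figure D5:**
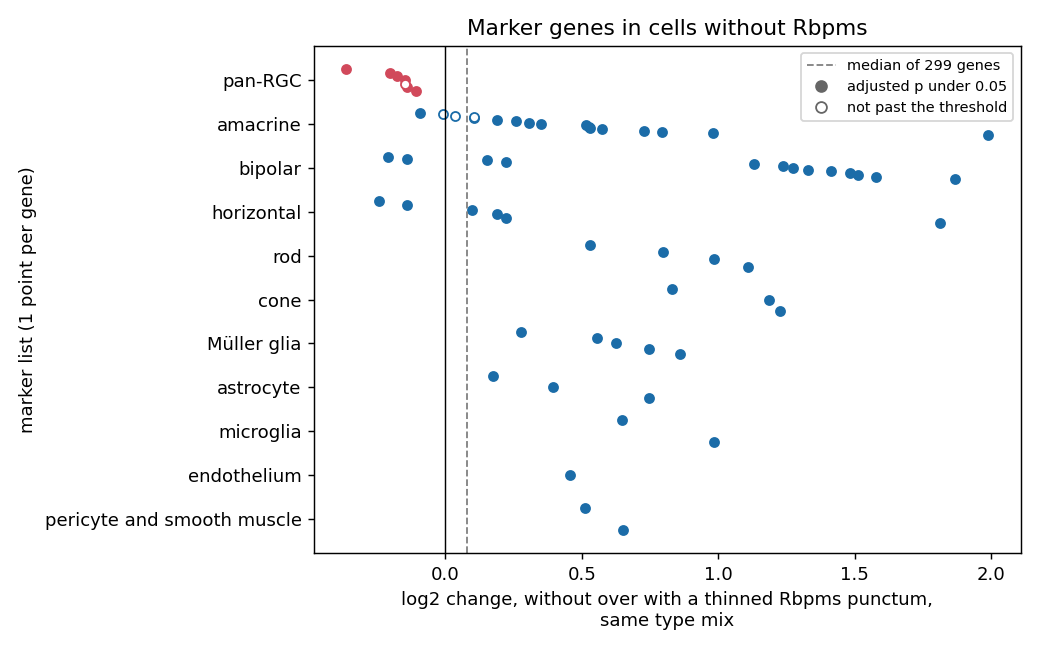
Log2 change of each marker gene between cells without and with an Rbpms punctum after thinning, with the same type mix (x axis), by marker list (y axis), with filled points past an adjusted p of 0.05 in limma. The 7 pan-RGC genes (red) lie below 0, 6 of them past the threshold, and most markers of other cell types lie above the median of all genes at 0.08.

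The other markers of RGCs went the opposite way. All 7 were lower in cells without Rbpms (edgeR): Pou4f3 fell by 0.66 ± 0.06, Ebf3 by 0.56 ± 0.03, Isl2 by 0.55 ± 0.04, Pou4f2 by 0.45 ± 0.05, Isl1 by 0.34 ± 0.03, Slc17a6 by 0.34 ± 0.03 and Nefh by 0.11 ± 0.03 on the log2 scale. Of all genes 38.8% were called lower in that fit. Scaled by total puncta alone, Nefh had 0.007 and did not pass. With the same type mix 6 of the 7 passed, beside 20.4% of all genes called lower. They ran from -0.11 for Nefh to -0.36 for Pou4f3, and Pou4f2 had -0.15 (adjusted p = 0.0568, limma). Their sum was 62.4 ± 3.67 per 1000 puncta without and 71.0 ± 1.81 with Rbpms, lower in 5 of 5 retinas.

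Among all genes the largest falls were in Lypd1, a prototoxin of nicotinic receptors (-0.82 ± 0.05), Ppp1r17, a phosphatase inhibitor (-0.72 ± 0.04), Rprm, a p53 target (-0.71 ± 0.04), Cpne4, a copine (-0.71 ± 0.03), Pou4f3, Penk, encoding proenkephalin (-0.62 ± 0.03), Ramp3, a receptor activity-modifying protein (-0.58 ± 0.08), and Cd83 (-0.56 ± 0.04). These falls were smaller with the same type mix: Lypd1 had -0.05 (adjusted p = 0.426, limma) and Ramp3 -0.19 (adjusted p = 0.12), and neither passed. Rprm had -0.34, Cpne4 -0.26, Ppp1r17 -0.20, Cd83 -0.16 and Penk -0.07, all past the threshold. The further genes with the largest falls in that comparison were Syndig1l (-0.26), Tfap2d (-0.25), Lxn (-0.25), Onecut1 (-0.24) and Cbln4 (-0.24).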

How the data were processed

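The deposited table holds raw counts, whole numbers of decoded puncta per gene and cell, with retina, slide, section, position, volume, nuclear stain signal, neighbour distance and type, per the file headers. These other columns have no stated unit. Segmentation, cell filters and type assignment are not given in the sources used here. Every cell had at least 100 puncta (median 285 to 326 by retina). No label ties the 8 slides to the 4 deposited samples, so the replicate was the retina (n = 5), although 2 slides each held cells of 2 retinas. The gene, lists, tests and alternatives were chosen with earlier results of these data known.

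Counts summed per retina and side were fitted with edgeR 4.0.16 in R 4.3.3 (quasi-likelihood, retina as block, TMM, filterByExpr), with Benjamini-Hochberg adjustment over all genes, or over all type-gene pairs within types, at 0.05. Sides lie in the same retina, which is the source of the pairing. Within types, each side needed 50 cells in at least 3 retinas. Same-mix differences used limma 3.58.1 on log2(CPM + 1) of types with at least 20 cells per side. Each type was weighted by its number of cells in the retina, with the same weight on either side. DESeq2 1.42.0 was an alternative. Fits were tested on simulated data with known changes. For radius, Y and X, 1.1-fold changes were recovered in 43.3%, 29.9% and 46.3% of changed genes, and 1.5-fold changes in 98.5%, 95.5% and 100%. Of unchanged genes 2%, 5% and 4% were called there. Within 1 type, 21_Tbr1_S2, fewer small changes were recovered. For the radius it was 10.9% at 1.1-fold, 45.3% at 1.2-fold and 90.3% at 1.5-fold, and for volume 20%, 58.1% and 93.7%. With the same type mix, 7% of unchanged genes were called for the radius and 8.08% for cells without Rbpms. Python 3.11.15 with numpy 2.4.6, pandas 2.3.3, scipy 1.17.1 and matplotlib 3.10.9 did the rest, with thinning without replacement. Named genes were the 8 largest changes each way among those past the threshold with 1 sign in all retinas and at least 100 puncta, and the 5 most like and most opposite genes over types. Families by type name, scaling by total puncta, the section as block, and leaving out a retina within single types were added after the data were seen. So was leaving out the sections under 200 cells where cells with and without Rbpms were compared.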

Additional observations from a re-analysis of the deposited data

Results flagged for a closer look

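Among 66 groups of 5 retina values, 3 had a retina standing far from the other 4 by Dixon's criterion at 95%, a rate that chance alone gives in about 1 of 20 groups. In 31_M2 retina 1 had an Rbpms share of 15.05 per 1000 puncta, and the other retinas lay between 13.6 and 13.8. In the 4 alpha types as 1 group, retina 1 had 11.7 per 1000 puncta, and the others lay between 9.95 and 10.4. The difference in Rbpms share between cells above and below the median volume of their type was 1.81 per 1000 puncta in retina 1 and 1.38 to 1.47 in the others. All 3 were the highest value of their group.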

How the results depend on the processing

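The rise of Rbpms with volume within types kept its sign under every alternative run, from 0.108 to 0.276 (log2), and its call under all but the fit with no replicate block (0.17, adjusted p = 0.0977, edgeR). Over all cells it lost its call with no replicate block (0.13, adjusted p = 0.0833) and by total puncta alone (0.00683, adjusted p = 0.575, edgeR). Over all cells, Rbpms was called along the radius, Y or X under none of the alternatives run. The radial change turned to 0.0202 with the section as block, and with the same type mix it ran from -0.0489 to 0.00961 over the fits leaving out 1 retina, 0.00662 without retina 2. The Y change turned to 0.0390 with the slide and 0.14 with the section as block. The radial call in 29_Novel was kept by total puncta alone and lost at 20 cells per side (0 types), and leaving out 1 retina gave 0 or 1 called types. Rbpms ranked 30 by the SD of log2 levels and 16 by the CV of puncta per cell, against 23. The ratio of highest to lowest type stayed between 3.74 and 3.96, the genes called in cells without Rbpms between 198 and 250, and with the same type mix between 161 and 196. By total puncta alone the split of the calls was 159 higher and 83 lower, against 126 and 116. Among single genes Nefh turned to 0.00684 there, and within types by volume Slc17a6 turned to -0.00792, Isl2 to -0.00461 and Ebf3 to -0.0481, and Ebf3 to -0.0179 and -0.0127 with slide and section blocks. Leaving out 1 of 5 retinas changed no call of Rbpms over all cells, or by volume with the cells of all types pooled. In single types it gave 21 to 31 called rises with volume, against 28 (types with at least 2 retinas left, added after the data were seen). At a median of 6 Rbpms puncta a cell, single cells were not compared.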
